A study of Mus musculus with 10 samples.

Results

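The comparison set 2 arrays of whole mouse testis at E18.5, that is days after conception and close to birth, against 2 arrays at E16.5. It took in every gene whose mean level over the series passed a filter. These 4 arrays belonged to a series of 10, with 2 arrays for each of 5 stages (the others being E11.5, E12.5 and E14.5), all hybridised to Affymetrix Mouse430_2 chips. Total RNA, taken up in Trizol, was labelled in a single round with biotin. The design text of the series speaks of independent preparations of testis, 2 for each stage. The 2 arrays of a stage were also washed and stained in different fluidics modules. In the fit with stage terms alone, the p-values therefore measure the spread between preparations and modules together. The testes carried no treatment or engineered allele in the labels, and the sources used here do not give the strain, the number of embryos in a preparation or whether the mesonephros was taken off. The arrays of E16.5 and E18.5 were chosen by their titles alone. The question was how stable the testis was over the last days before birth, and which gene groups drifted together.

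The fetal testis is built from cords in which Sertoli cells enclose germ cells, with peritubular muscle around the cords and fetal Leydig cells, vessels and macrophages between them. By the late fetal stages the male germ cells, called prospermatogonia, have stopped dividing, have left the pluripotent state of their precursors and use small Piwi-bound RNAs (piRNAs) to direct DNA methylation onto transposons. Fetal Leydig cells turn cholesterol, which they import or make, into androgens that masculinise the embryo, and Sertoli cells continue to multiply and to secrete proteins into and around the cords.

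Values were scaled signals, one for each probe set and array, and a gene was represented by its brightest probe set. Of 18193 genes, 10916 passed a filter at the 40th percentile of the mean level over all 10 arrays (a signal of 49.1) and were tested. A gene above that signal at E18.5 could still fail the filter, and Msln, given below, was not tested. Counts over tested genes leave such genes out. Changes are log2 differences of (signal + 16), E18.5 minus E16.5, so a negative value means lower before birth, and low genes are understated on this scale. The median signal was 42.9 and 40.4 on the E16.5 arrays and 46.1 and 40.3 on the E18.5 arrays. RNA integrity was read from the 3'/5' signal ratio of actin. The ratio was 2.61 and 2.60 on the E16.5 arrays, 2.62 on replicate 2 of E18.5 and 1.87 on its replicate 1, which stood apart. Replicates 1 of both stages were washed and stained in fluidics module 3 and replicates 2 in module 4. The arrays of E11.5, E12.5 and E14.5 went through modules 1 and 2. The module 4 arrays had nearly equal actin ratios, and the medians of gene groups are given for each module. The stages were scanned on different days, so scan day and stage cannot be told apart within this comparison. E12.5 shared its scan day with E16.5 and E11.5 with E18.5, so the difference E11.5 minus E12.5 spans the same 2 days and shares no array with the comparison. Of 34 marker genes listed for 13 cell types, 29 had a probe set of their own. No detection call was made. Those of Sertoli, Leydig, germ, peritubular, endothelial and macrophage cells read from 81.1 for Adgre1 to 6464 for Cyp17a1, the lowest being close to the level of the markers given next. The Leydig marker Insl3 had no probe set of its own. Markers of skeletal muscle and nephric duct stayed at or below 79.9 on all 4 arrays, and Cyp11b1, an adrenal enzyme, at or below 114. The other adrenal marker, Cyp21a1, was higher, at 230.1 and 384 at E16.5 and then 505 and 463 at E18.5. Of the mesothelial markers, Upk3b read 219 and 179.9 at E16.5 and then 337 and 260.4 at E18.5 and Msln 29.5 and 33.7 at E16.5 and then 90.5 and 76.9 at E18.5, and the summed signal of 12 mesothelial genes was 2400 and 2262 and then 2792 and 2363.

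The testis at E18.5 was about as far from the testis at E16.5 as arrays of the same stage were from each other. Across the 10916 genes the median absolute difference was 0.169 between the E16.5 arrays and 0.182 between the E18.5 arrays. Between the stages it was 0.171 in module 3 and 0.156 in module 4, and 0.176 and 0.221 for the pairs from different modules. The 2 arrays of a stage also came from different modules, so the pairs at 0.176 and 0.221 are the like comparison. Of these, 0.176 lay between the 2 same-stage values and 0.221 above both. The closest of all 45 pairs in the series were the replicates 2 of E16.5 and E18.5. Taken as stage means, the median absolute change was 0.135, against 0.266 from E14.5 to E16.5, 0.249 from E12.5 to E14.5 and 0.189 from E11.5 to E12.5. The step from E14.5 to E16.5 also changed fluidics modules, and the part of the modules in it was not tested. Changes beyond 2-fold were measured for 31 genes (0.284%), against 412, 307 and 233 in those earlier steps. The 90th percentile of the absolute change was 0.37, or 1.29-fold, and the 99th was 0.75, or 1.68-fold. The 95% confidence interval of the change excluded a 2-fold difference in either direction for 10359 genes (94.9%).

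**Figure D1:**
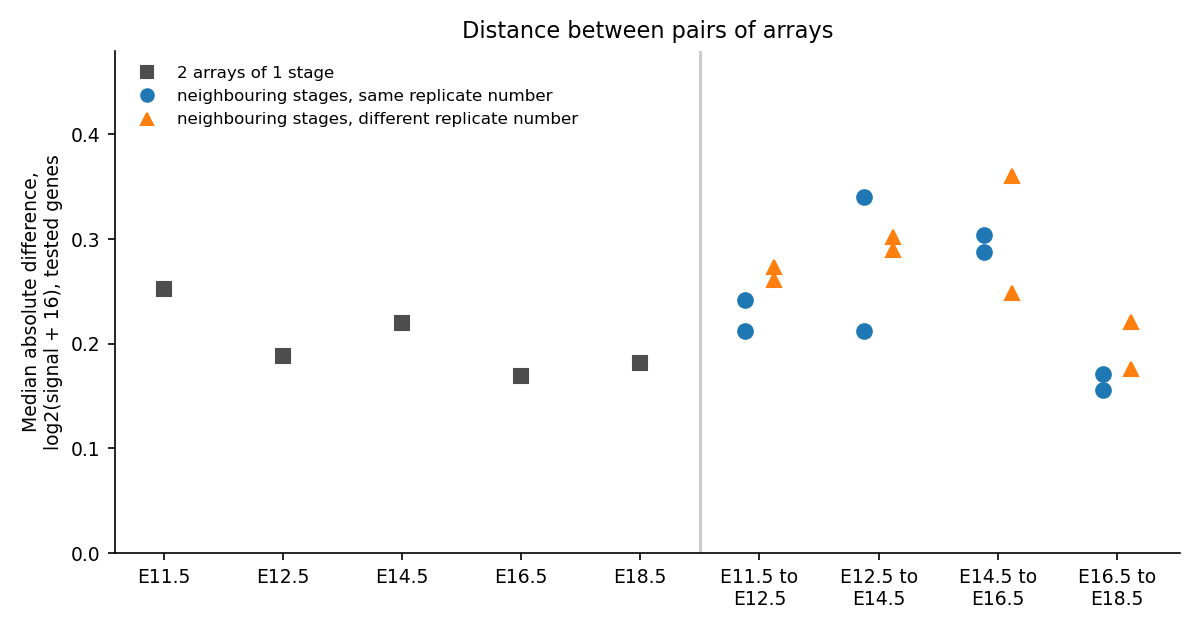
Median absolute difference in log2(signal + 16) over 10916 genes for pairs of arrays. Squares are the 2 arrays of each stage, which came from different fluidics modules. Circles and triangles are pairs from neighbouring stages with the same or different replicate numbers. The 4 pairs that join E16.5 and E18.5 lie between 0.156 and 0.221, within the span of the same-stage pairs from 0.169 to 0.252 or below it, and all but 1 lie below every pair of the 3 earlier steps.

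In the limma fit to all 10 arrays with 1 term for each stage, 2 genes passed an adjusted p of 0.05 (0.0183% of those tested), 1 higher (0.00916%) and 1 lower (0.00916%). An unadjusted p under 0.05 was reached by 538 genes (4.93%). The same fit called 1181 genes (10.8%) from E14.5 to E16.5, the step that also changed modules. It called 574 (5.26%) from E12.5 to E14.5 and 357 (3.27%) from E11.5 to E12.5. The median SE of a change was 0.2 on the log2 scale.

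Cst12, a cystatin-family protease inhibitor gene of the testis, was the gene that rose. Its signal was 779 and 1117 at E16.5 and then 2400.4 and 3206 at E18.5 (log2 1.56, SE 0.20, adjusted p 0.0249). Both E18.5 arrays lay well above both E16.5 arrays, and the earlier stages were far lower, at 113.7 and 114.5 on the E14.5 arrays. The 250 bases before its start site, from the RefSeq promoter table of build GRCm38.p6 (chr2:148789115-148789364, plus strand), are shown because Cst12 was the gene that rose, and hold none of the sites looked for in the promoters described here.
Cst12: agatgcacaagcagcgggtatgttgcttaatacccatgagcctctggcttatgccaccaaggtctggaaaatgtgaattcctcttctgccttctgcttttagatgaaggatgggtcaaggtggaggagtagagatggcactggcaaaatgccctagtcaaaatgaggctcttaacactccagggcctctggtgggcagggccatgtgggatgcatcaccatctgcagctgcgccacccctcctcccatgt

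Alas2, the red cell form of the enzyme that starts heme synthesis, was the gene that fell. Its signal was 576 and 591 at E16.5 and then 223 and 195 at E18.5 (log2 -1.42, SE 0.19, adjusted p 0.0249). The replicates of each stage were close together and the stages far apart, and E16.5 was the highest of the 5 stages. Its promoter (RefSeq table, GRCm38.p6, chrX:150547167-150547416, plus strand) is shown with every match to the 10 motifs searched in capitals. From the left these are an SF-1 site (AAGGTCA) starting 246 bases before the start, a TATA-like sequence (TATAAA, here TTTATA) at 209, a short glucocorticoid receptor motif (AGAACA) at 121, a GATA factor site (AGATAA, here TTATCT) at 86, and 2 overlapping matches to the core of a sterol regulatory element (CACNCCAC, here GTGGGGTG) at 38 and 33. GATA factors are known regulators of red cell genes, and the GATA and sterol element letters were added to the search after values were seen. Among promoters of tested genes the SF-1 letters stood in 3.26%, the TATA letters in 7.74% and the glucocorticoid receptor letters in 12.4%. A site with the GATA letters stood in 584 of 8855 promoters of tested genes (6.6%), and in 2 of the 5 red cell genes with a promoter in the table.
Alas2: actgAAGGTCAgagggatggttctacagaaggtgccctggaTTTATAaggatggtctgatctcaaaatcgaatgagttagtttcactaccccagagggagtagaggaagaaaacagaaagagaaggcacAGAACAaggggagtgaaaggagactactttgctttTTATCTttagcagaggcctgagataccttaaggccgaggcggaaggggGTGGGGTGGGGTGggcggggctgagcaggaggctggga

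**Figure D2:**
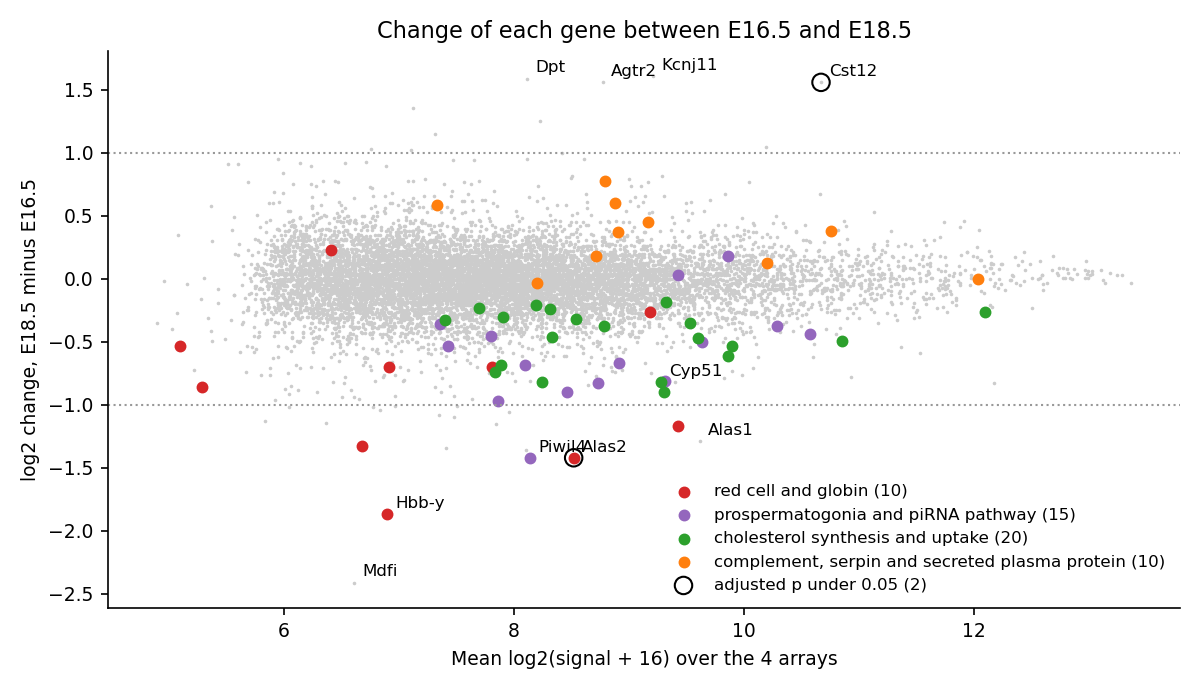
Change of each of 10916 genes (vertical axis, log2 scale) against its mean level over the 4 arrays (horizontal axis, log2(signal + 16)). Coloured points are members of 4 gene lists, circles mark the 2 genes past the threshold, and dotted lines mark a 2-fold change. Most genes lie close to 0, and red cell, piRNA and cholesterol genes lie mostly below it.

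How many genes are called depends on how the arrays are set against each other. With the fluidics module as a block in the fit to 10 arrays, 16 genes passed (0.147%), 5 higher (0.0458%) and 11 lower (0.101%), and 815 had an unadjusted p under 0.05 (7.47%). Beside Cst12 and Alas2 these were Kcnj11, Agtr2, Igfbp6 and 4930550L24Rik, all higher, and Hbb-y, Alas1, Nxf2, Mdfi, Mns1, Dppa3, Hmga2, Slc4a1, Utf1 and Car2, all lower. Agtr2, an angiotensin receptor of fetal mesenchyme, read 206 and 277 at E16.5 and then 754 and 716 at E18.5 (log2 1.56, SE 0.25, adjusted p 0.0609), and Kcnj11, a potassium channel subunit, read 366 and 285 at E16.5 and then 1176 and 882 at E18.5 (log2 1.61, SE 0.32, adjusted p 0.169). Mdfi, an inhibitor of muscle transcription factors, had the largest change of all tested genes, log2 -2.41, but with an SE of 1.19 and an adjusted p of 1 in the fit without the block, and its E16.5 signals were 217 and 202 while those of E18.5 were 8.3 and 58.2. Genes named in this paragraph other than Cst12 and Alas2 were chosen after their values were seen, unless a list below names them. When E16.5 and E18.5 were fitted alone with the module as a block, 535 genes passed (4.9%), 205 higher (1.88%) and 330 lower (3.02%). That last fit compares 1 pair of arrays in each module and rests on 1 residual degree of freedom for a gene, so most of its error estimate is borrowed from other genes. Across all tested genes the changes in module 3 and module 4 had a correlation of 0.368 and the same sign in 60.9% of genes, and neither shares an array with the other. Below, "the within-module fit" means that fit to the 4 arrays. Counts from it stand beside the counts of genes whose stages did not overlap, and the adjusted p of a named gene is that of the 10-array fit unless the within-module fit is named.

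**Figure D3:**
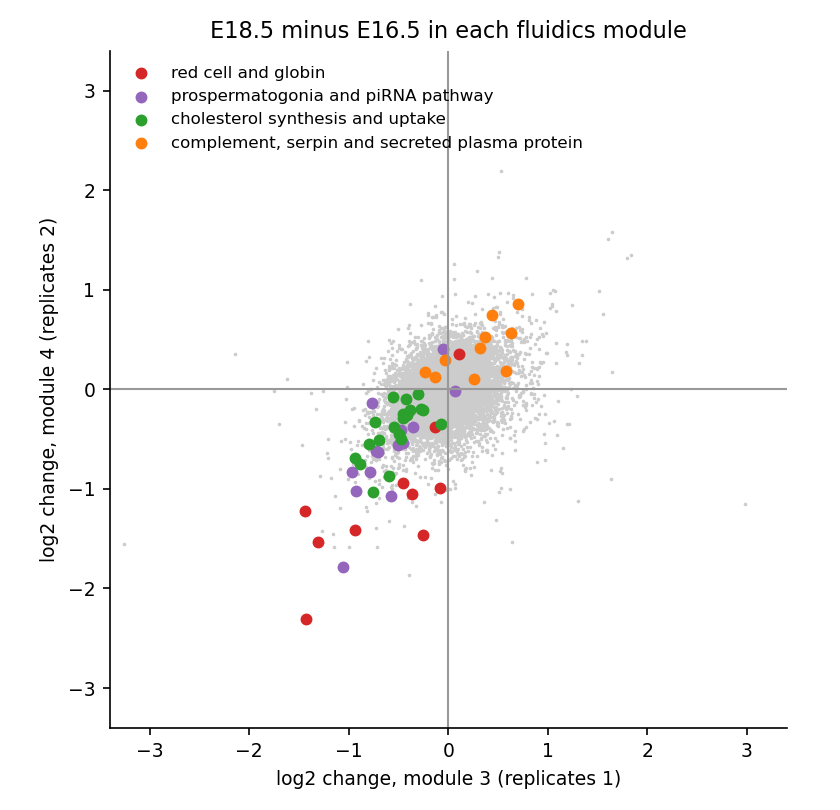
Change from E16.5 to E18.5 of each gene in module 3 (horizontal axis, replicates 1) and module 4 (vertical axis, replicates 2), log2 scale. The pairs share no array. Red cell, piRNA and cholesterol genes lie mostly to the lower left, lower in both pairs, and plasma protein genes lie to the upper right or near 0.

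Red cell genes were lower at E18.5. Of 10 tested genes of the red cell and globin list, 9 were lower and 1 was higher, with a median change of -0.78 against -0.01 over all genes. In 8 of the 10 both E18.5 arrays lay below both E16.5 arrays, which was the case for 2186 of all tested genes (20.0%). The opposite order held for 1827 (16.7%), and in the other 6903 (63.2%) the stages overlapped. Alas2 passed the test in the 10-array fit and 6 genes passed as lower in the within-module fit. The median was -0.40 in module 3 and -1.13 in module 4, and 0.19 for E11.5 minus E12.5. It was -1.23 without replicate 1 of E18.5 and -0.53 without its replicate 2. In bulk tissue, fewer cells of a type and less RNA in each cell cannot be told apart.

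Hbb-y, an embryonic beta-like globin, measured 246 and 184 at E16.5 and then 81 and 24.2 at E18.5 (log2 -1.87, SE 0.31, adjusted p 0.0669, and 0.00198 with the module block). Slc4a1, the anion exchanger of the red cell membrane, measured 168 and 127 at E16.5 and then 51.9 and 45.4 at E18.5 (log2 -1.33, SE 0.25, adjusted p 0.155). The probe set named Hbb-b2, an adult beta globin, read 1024 and 1014 at E16.5 and then 525 and 373 at E18.5 (log2 -1.17, SE 0.23, adjusted p 0.155), and near-identical globin copies may share its signal. In each of these 3 genes the E18.5 arrays were clearly the lower pair. Hba-a2, an adult alpha globin named after its values were seen, was the exception, with 80.5 and 48.1 at E16.5 and then 88.4 and 65.8 at E18.5, where the stages overlapped. Fech, which completes heme (named after its values were seen), was 560.2 and 686 at E16.5 and then 509.8 and 523 at E18.5. Alas1, the form of the first heme enzyme found in most tissues and steroid-making cells, also stood lower without belonging to the list, at 1164 and 1256 at E16.5 and then 574 and 409.5 at E18.5 (log2 -1.29, SE 0.20, adjusted p 0.0609, 0.0131 with the module block). Car2, a carbonic anhydrase rich in red cells, and Alas1 were named after their values were seen.

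Germ cell genes of the piRNA pathway were lower at E18.5. Of 24 genes in the prospermatogonia and piRNA list, 15 were tested, 13 of them were lower, and in 11 the stages did not overlap. The median was -0.53, and it was alike in the 2 modules, at -0.58 and -0.56. None passed in the 10-array fit, and 11 passed as lower in the within-module fit. The highest mean was at E16.5 for 10 of the 15. E11.5 minus E12.5 had a median of -0.35 for this list, the same direction, at stages when most of these genes were low, and the part of scan day in the result was not tested.

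Piwil4, a nuclear Piwi protein of fetal prospermatogonia also called MIWI2, had the largest change of the list. Its signal was 456 and 435 at E16.5 and then 209.9 and 115 at E18.5 (log2 -1.42, SE 0.27, adjusted p 0.155, within-module fit 3.28e-07). Piwil2, the cytoplasmic partner that makes its piRNAs, measured 463 and 471 at E16.5 and then 229 and 257 at E18.5 (log2 -0.90, SE 0.17, adjusted p 0.155). Mov10l1, the RNA helicase that feeds transcripts into piRNA production, read 308 and 312 at E16.5 and then 154 and 146 at E18.5 (log2 -0.97, SE 0.20, adjusted p 0.17). In all 3 the E18.5 arrays were clearly the lower pair, and the E18.5 replicates of Piwil4 themselves differed widely. Ddx25, a germ cell RNA helicase, was 539 and 562 at E16.5 and then 354 and 259.5 at E18.5 (log2 -0.83, SE 0.17, adjusted p 0.192). Of 3 general germ cell markers, Ddx4 and Mael were apart and lower and Dazl was not. Ddx4 (vasa) read 1041 and 828 at E16.5 and then 756 and 564 at E18.5 (log2 -0.50, adjusted p 1), a change close to the list median. Mael read 1991 and 1546 at E16.5 and then 1430 and 1163 at E18.5. Dazl, a germ cell RNA-binding protein, read 959 and 771 at E16.5 and then 925 and 1024 at E18.5 (log2 0.18, adjusted p 1), with stages that overlapped. Gtsf1, a small Piwi-associated protein named here after its values were seen, also overlapped, at 795 and 558 at E16.5 and then 837 and 551 at E18.5. Dnmt3l, which guides de novo DNA methylation in prospermatogonia, measured 353 and 364 at E16.5 and then 231 and 169 at E18.5 (log2 -0.81, SE 0.32, adjusted p 0.875, within-module fit 0.000361). The other members of the DNA methylation list did not share its change, and the list's median over 11 tested genes was -0.00 (module 3 0.04, module 4 -0.10), with 1 apart in each direction.

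Pluripotency genes of germ cells were lower too. Of 16 tested, 14 were lower and 12 had stages apart in that direction, with 2 apart in the other, and the median was -0.39 (module 3 -0.38, module 4 -0.25, E11.5 minus E12.5 -0.31). In the within-module fit 5 passed as lower and 0 as higher, and in the 10-array fit 0 passed. Utf1, a chromatin protein of pluripotent cells, was 302 and 355 at E16.5 and then 177 and 108 at E18.5 (log2 -1.15, SE 0.22, adjusted p 0.155, 0.0482 with the module block). Dppa3, also called Stella, read 201 and 108 at E16.5 and then 79.4 and 50.7 at E18.5 (log2 -1.04, SE 0.27, adjusted p 0.392, 0.0451 with the module block). Dppa4 read 1091 and 712 at E16.5 and then 563 and 428 at E18.5 (log2 -0.82, SE 0.24, adjusted p 0.51), and Pou5f1, which encodes Oct4, 122 and 119 at E16.5 and then 79.4 and 59 at E18.5 (log2 -0.69, SE 0.25, adjusted p 0.758). E18.5 was the lower pair in each of the 4, although the E16.5 replicates of Dppa3 themselves differed widely. Nanog and Sox2, both named after their values were seen, were at or below 23.9 on all 4 arrays, near the floor of the assay. Lefty1, a Nodal inhibitor named likewise, went the other way, at 56.7 and 37.6 at E16.5 and then 89.7 and 64 at E18.5.

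Genes of later germ cell life differed less. The spermatogonial stem cell list had a median of -0.08 over 11 genes (module 3 -0.04, module 4 -0.06). In it 4 were apart and lower and 1 apart and higher, beside 20.0% and 16.7% of all tested genes. The sign of the median turned when 1 array was left out, to 0.13 without replicate 2 of E16.5 and 0.06 without replicate 1 of E18.5. Taf4b, a transcription factor subunit of germ cells, read 382 and 351 at E16.5 and then 257 and 223 at E18.5 (log2 -0.58, SE 0.22, adjusted p 0.846), and Sohlh1, a transcription factor of spermatogonia, read 159 and 186 at E16.5 and then 124 and 115 at E18.5 (log2 -0.47, SE 0.25, adjusted p 1). Over 9 meiosis genes the median was -0.14 (module 3 -0.36, module 4 -0.11). Beside the same shares of all tested genes, 4 were apart and lower and 1 apart and higher. Stag3, a meiotic cohesin, was 338 and 344 at E16.5 and then 228 and 261 at E18.5 (log2 -0.46, SE 0.19, adjusted p 0.917), while Sycp3, a synaptonemal complex protein named after its values were seen, overlapped, at 239 and 182 at E16.5 and then 252 and 212 at E18.5.

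Cholesterol synthesis genes were lower together. All 20 tested genes of the list were lower at E18.5 in their means, and in 17 both E18.5 arrays lay below both E16.5 arrays. The median was -0.41, with -0.48 in module 3, -0.34 in module 4 and 0.30 for E11.5 minus E12.5, the opposite direction. None passed in the 10-array fit and 11 passed as lower in the within-module fit. For 19 of the 20 the highest stage was E16.5.

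Dhcr7, the last enzyme on the way to cholesterol, measured 786 and 915 at E16.5 and then 458 and 439 at E18.5 (log2 -0.90, SE 0.21, adjusted p 0.276). Cyp51, which removes a methyl group from lanosterol, measured 857 and 761 at E16.5 and then 438 and 465 at E18.5 (log2 -0.82, SE 0.16, adjusted p 0.17). Hsd17b7, a reductase of the same pathway, measured 414 and 360.3 at E16.5 and then 215 and 208 at E18.5 (log2 -0.82, SE 0.17, adjusted p 0.192). Mvd, the decarboxylase at the end of the mevalonate steps, measured 239.6 and 325 at E16.5 and then 153 and 170.2 at E18.5 (log2 -0.74, SE 0.21, adjusted p 0.496). In each the E18.5 replicates were close together and the stages did not overlap. The smallest difference of the list was that of Fdft1, squalene synthase, at 673 and 655 at E16.5 and then 545 and 630.1 at E18.5, and Srebf2, which encodes the transcription factor of the pathway, overlapped at 238 and 372 at E16.5 and then 226 and 289 at E18.5, both named after their values were seen.

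Of the 20 cholesterol genes, 16 had a promoter in the RefSeq table. All 16 held a CCAAT box, the letters CCAAT or their reverse complement ATTGG, within the 250 bases before the start, against 3609 of 8855 promoters of tested genes (40.8%). The core of a sterol regulatory element, CACNCCAC on either strand, was added to the search after values were seen and stood in 2 of the 16, against 6.83% of all. CCAAT boxes are bound by NF-Y, a known partner of the sterol-responsive factor at such promoters, and a match here is a description of the letters only. The promoters of 3 of the 4 genes above are printed to show this shared feature, with only the CCAAT boxes in capitals (RefSeq table, GRCm38.p6, all on the minus strand and written 5′ to 3′ along the gene). They are Cyp51 at chr5:4104698-4104947 with 1 box, Hsd17b7 at chr1:169969206-169969455 with 3, and Mvd at chr8:122443423-122443672 with 2. Of the other motifs searched, Hsd17b7 also held 1 match to the short glucocorticoid receptor motif and Cyp51 and Mvd held none. The box nearest to the start began 29, 12 and 27 bases before it.
Cyp51: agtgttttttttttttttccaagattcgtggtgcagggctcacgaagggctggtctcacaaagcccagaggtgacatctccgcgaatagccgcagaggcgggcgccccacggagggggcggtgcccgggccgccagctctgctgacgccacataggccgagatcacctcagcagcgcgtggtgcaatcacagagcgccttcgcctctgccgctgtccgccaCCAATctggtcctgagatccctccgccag
Hsd17b7: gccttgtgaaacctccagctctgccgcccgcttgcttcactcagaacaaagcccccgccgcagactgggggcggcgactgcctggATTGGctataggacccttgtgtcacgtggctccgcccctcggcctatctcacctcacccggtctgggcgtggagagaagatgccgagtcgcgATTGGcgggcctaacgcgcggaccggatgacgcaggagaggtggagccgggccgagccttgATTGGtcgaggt
Mvd: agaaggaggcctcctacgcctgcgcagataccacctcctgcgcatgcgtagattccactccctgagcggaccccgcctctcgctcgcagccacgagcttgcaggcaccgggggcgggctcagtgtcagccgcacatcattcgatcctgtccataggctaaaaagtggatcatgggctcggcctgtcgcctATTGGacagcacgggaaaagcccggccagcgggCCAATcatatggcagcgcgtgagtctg

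The genes of the fetal Leydig cell list did not move as a block. The list shares Hsd3b1 and Cyp21a1 with the adrenal cortex list, and which cells made each RNA was not tested. Of 13 tested, 9 were lower and 4 higher, with 5 apart and lower and 3 apart and higher, and the median was -0.18 (module 3 -0.12, module 4 -0.40, E11.5 minus E12.5 0.19). It was -0.39 without replicate 1 of E16.5 and -0.29 without replicate 1 of E18.5. Genes of cholesterol delivery were among the lower ones. Star, which carries cholesterol into mitochondria, read 1253 and 1109.5 at E16.5 and then 721 and 631 at E18.5 (log2 -0.79, SE 0.19, adjusted p 0.278). Scarb1, the receptor that takes up cholesterol from lipoproteins, read 2355 and 2734 at E16.5 and then 1586 and 1363 at E18.5 (log2 -0.78, SE 0.17, adjusted p 0.245). Cyp17a1, which makes androgen precursors, read 6464 and 5849 at E16.5 and then 3862 and 3078 at E18.5. Its change of -0.83 had an SE of 0.41 in the 10-array fit, where its E12.5 arrays differed widely, at 4.2 and 62.9 (adjusted p 1), and an adjusted p of 2.77e-08 in the within-module fit. Fdx1, which passes electrons to mitochondrial P450 enzymes, read 4040.5 and 3224 at E16.5 and then 2835 and 2007 at E18.5 (log2 -0.59, SE 0.20, adjusted p 0.653). Cyp11a1, the enzyme that cleaves the cholesterol side chain, was 2871 and 3445 at E16.5 and then 2648 and 2606 at E18.5 (log2 -0.26).

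Other steroid genes were higher. Hsd3b1, the dehydrogenase that acts after side-chain cleavage, was 2905 and 2652 at E16.5 and then 3666 and 3054 at E18.5 (log2 0.27, within-module fit 0.0455). Hsd17b3, which makes testosterone from androstenedione, was 545 and 632 at E16.5 and then 898 and 915 at E18.5 (log2 0.61, SE 0.20, adjusted p 0.653, within-module fit 0.000791). Cyp21a1, an adrenal steroid 21-hydroxylase found in some fetal testis cells, was 230.1 and 384 at E16.5 and then 505 and 463 at E18.5 (log2 0.67, SE 0.23, adjusted p 0.726). In these 3 the stages did not overlap. In the adrenal cortex list 4 of the 8 tested genes were apart and higher and 0 apart and lower, and Hsd3b1 and Cyp21a1 belong to both lists. Cyp11b1, which marks adrenal cortex, overlapped at 72.9 and 114 at E16.5 and then 106 and 71.7 at E18.5.

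**Figure D4:**
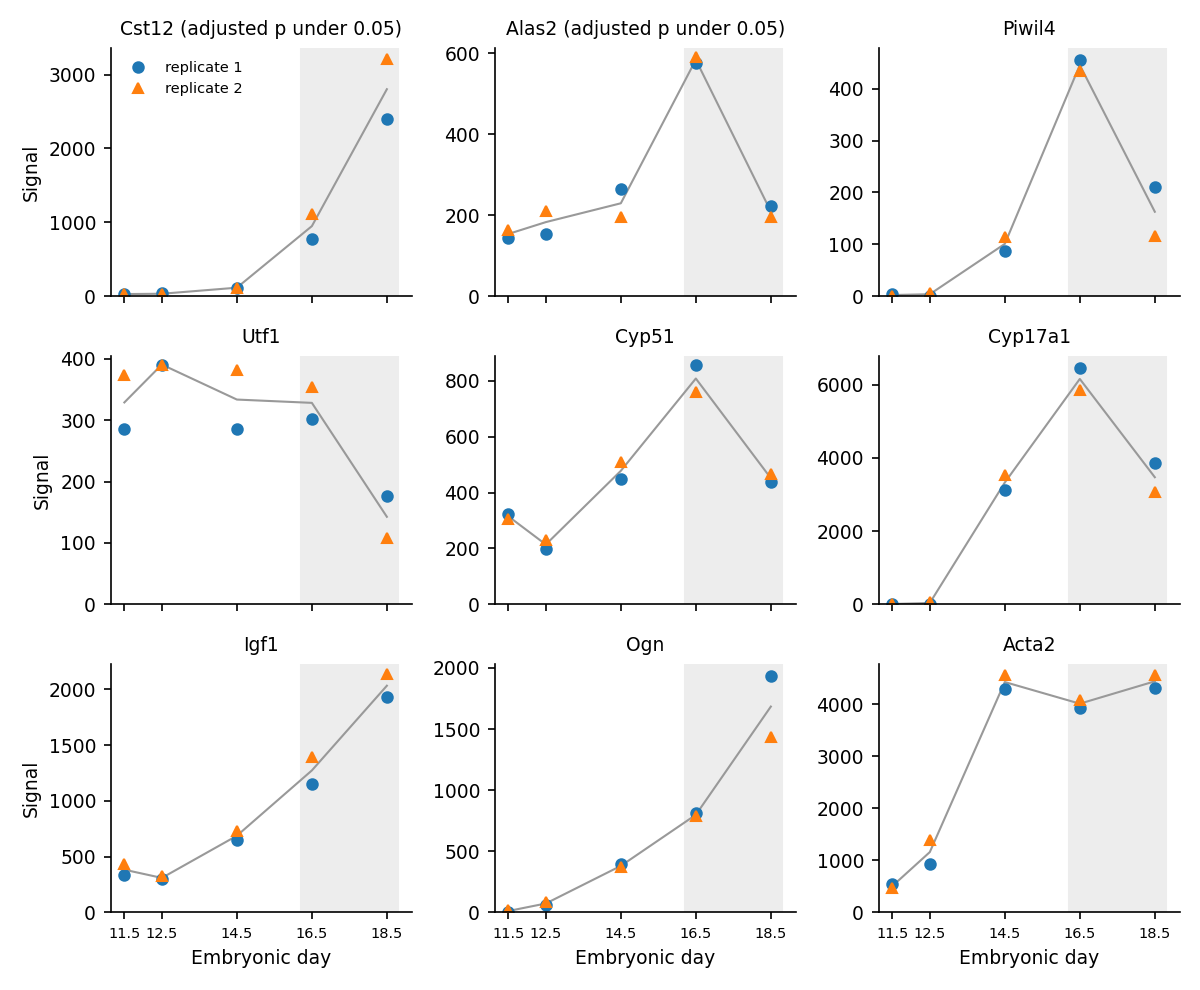
Signal on each array (vertical axis, linear scale from 0) of 9 genes over the 5 stages (horizontal axis, embryonic day). Circles are replicates 1, triangles replicates 2, the line joins stage means, and the shaded days are compared here. Cst12, Igf1 and Ogn are highest at E18.5, Alas2, Piwil4, Cyp51 and Cyp17a1 peak at E16.5, Utf1 is lowest at E18.5, and Acta2 differs by a log2 of 0.15.

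Most Sertoli cell genes had slightly higher means at E18.5, by an amount that depended on the array. Of 21 tested, 17 were higher and 4 lower, 6 were apart and higher and 2 apart and lower, against the 16.7% given above for all tested genes. The median was 0.18 (module 3 0.09, module 4 0.28, E11.5 minus E12.5 -0.35), and 14 of the 21 had their highest mean at E18.5. The median was 0.03 without replicate 2 of E18.5, 0.34 without its replicate 1, 0.12 without replicate 1 of E16.5 and 0.28 without its replicate 2. In the within-module fit 3 passed as higher and 1 as lower. Sox9, the transcription factor that sets Sertoli fate, was 92.7 and 116 at E16.5 and then 101.1 and 166 at E18.5 (log2 0.29). Amh, the hormone that removes the female duct, differed more between replicates than between stages, at 248 and 449 at E16.5 and then 222 and 506 at E18.5 (log2 0.01). Inha, the inhibin alpha subunit, read 2327 and 3113 at E16.5 and then 2809 and 3995 at E18.5 (log2 0.31), Dhh, the hedgehog ligand, 564 and 628 at E16.5 and then 542 and 767 at E18.5 (log2 0.11), and Cst9, a cystatin of fetal Sertoli cells, 2144 and 1905 at E16.5 and then 2426 and 2486 at E18.5 (log2 0.28). All of these overlapped except Cst9. Col9a3, a collagen chain of Sertoli cells, was the largest exception, at 165 and 157 at E16.5 and then 85.3 and 60.6 at E18.5 (log2 -1.01, SE 0.37, adjusted p 0.797, within-module fit 0.000234).

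Secreted plasma-type proteins had the highest median of the 42 lists, 0.37 over 10 genes (0.35 in each module, 0.05 for E11.5 minus E12.5). Of these, 6 were apart and higher, 0 apart and lower, 5 passed as higher in the within-module fit, and 8 had their highest mean at E18.5. Serpina5, a protease inhibitor of the reproductive tract, read 282 and 369 at E16.5 and then 469 and 684 at E18.5 (log2 0.78, SE 0.27, adjusted p 0.724). Apoe, a lipid carrier, read 362 and 372 at E16.5 and then 568 and 559 at E18.5 (log2 0.60, SE 0.18, adjusted p 0.534) with replicates of each stage close together. Serping1, the inhibitor of complement C1, read 448 and 502 at E16.5 and then 586 and 733 at E18.5 (log2 0.45, SE 0.20, adjusted p 0.969). Clu, or clusterin, overlapped at 3827 and 4537 at E16.5 and then 3486 and 4948 at E18.5 and was named after its values were seen.

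Detoxification genes were similar, with 18 of 21 higher, 10 apart and higher, 1 apart and lower, and a median of 0.17 (module 3 0.10, module 4 0.19, E11.5 minus E12.5 -0.18). Gstt1, a glutathione transferase, had the largest change, at 159.5 and 132 at E16.5 and then 272 and 195 at E18.5 (log2 0.62, SE 0.19, adjusted p 0.6). Gstm1, another transferase, read 2186 and 2129.9 at E16.5 and then 2455 and 3217 at E18.5 (log2 0.38, SE 0.20, adjusted p 1), and Mgst1, a membrane-bound form, 2247 and 2092 at E16.5 and then 2924 and 2454 at E18.5 (log2 0.30, SE 0.17, adjusted p 1). The abundant Aldh1a1, an aldehyde dehydrogenase named after its values were seen, differed less, at 3948 and 4119.5 at E16.5 and then 4224 and 4715 at E18.5 (log2 0.15). The stages were apart in all 4, and 4 of the 21 genes passed as higher in the within-module fit.

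Among matrix genes several proteoglycans stood higher, while Col1a1 and Col3a1 overlapped. The fibrillar and stromal matrix list had a median of 0.13 over 22 genes (module 3 0.24, module 4 0.03, E11.5 minus E12.5 -0.66). Of these, 6 were apart and higher and 2 apart and lower, beside 16.7% and 20.0% of all tested genes. In the within-module fit 5 passed as higher and 0 as lower. Among the members with the lowest p were 3 small leucine-rich proteoglycans, which bind collagen fibrils. Ogn (osteoglycin) read 811 and 785 at E16.5 and then 1936 and 1432 at E18.5 (log2 1.05, SE 0.23, adjusted p 0.245), Lum (lumican) 456 and 351 at E16.5 and then 731 and 534 at E18.5 (log2 0.62, SE 0.20, adjusted p 0.614) and Dcn (decorin) 3149.8 and 2670.4 at E16.5 and then 4211 and 3755 at E18.5 (log2 0.45, SE 0.17, adjusted p 0.851). Their stages did not overlap. Bgn (biglycan), of the same family and named after its values were seen, overlapped at 1948 and 2395 at E16.5 and then 2385 and 2686 at E18.5. Col1a1, the main fibrillar collagen chain, overlapped at 1966 and 2545 at E16.5 and then 2059 and 2201 at E18.5 (log2 -0.07), and Col3a1 at 5878 and 6264 at E16.5 and then 6109 and 6248 at E18.5 (named after its values were seen). Dpt, dermatopontin, a decorin-binding matrix protein outside the list and named after its values were seen, measured 110.0 and 187 at E16.5 and then 434 and 501 at E18.5 (log2 1.59, SE 0.36, adjusted p 0.25, within-module fit 2.52e-08).

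Peritubular and smooth muscle genes differed by less than 2-fold, mostly upward. Of 9 tested, 8 were higher and 1 lower, and the median was 0.18 (module 3 0.27, module 4 0.16, E11.5 minus E12.5 -0.44), 4 were apart and higher against the 16.7% of all tested genes, 0 apart and lower, and none passed either fit. Acta2, smooth muscle actin, was 3935 and 4083 at E16.5 and then 4317 and 4560.0 at E18.5 (log2 0.15), and Myh11, smooth muscle myosin, 157 and 147 at E16.5 and then 219 and 194 at E18.5 (log2 0.40). All 9 had intervals that excluded a 2-fold change, as did 94.9% of all tested genes. Endothelial genes had no common direction. Of 17 tested, 9 were higher and 8 lower, and the median was 0.01 (module 3 0.03, module 4 -0.08). In each direction 3 were apart, near the shares over all tested genes, 16.7% higher and 20.0% lower. In the within-module fit 3 passed as lower and 0 as higher. Vwf, von Willebrand factor, was 219.6 and 223 at E16.5 and then 80.5 and 114 at E18.5 (log2 -1.08, SE 0.30, adjusted p 0.486) and Plvap, a vessel diaphragm protein, 83.8 and 116 at E16.5 and then 46.9 and 50.7 at E18.5 (log2 -0.82, SE 0.23, adjusted p 0.496), and Tek, an angiopoietin receptor, was apart and lower with them (log2 -0.26). Flt1, a VEGF receptor, Sox18, a vascular transcription factor, and Robo4, a guidance receptor of vessels, were apart and higher (log2 0.35, 0.31 and 0.09). Tek, Sox18 and Robo4 were named after their values were seen. Pecam1, present on all endothelium, overlapped at 147 and 199 at E16.5 and then 150.5 and 197 at E18.5. The macrophage and leukocyte list had a median of 0.13 over 12 (module 3 0.17, module 4 0.15), 4 apart and higher and 0 apart and lower, and its receptor gene Csf1r read 299 and 294 at E16.5 and then 395 and 360.1 at E18.5 (log2 0.33).

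In the insulin-like growth factor axis Igf1 and Igfbp6 were higher and Igfbp2 was lower. Igf1, the growth factor, read 1153 and 1394 at E16.5 and then 1930.4 and 2137 at E18.5 (log2 0.67, SE 0.18, adjusted p 0.405, within-module fit 3.35e-05). Igfbp6, a binding protein that prefers Igf2, read 219.5 and 318 at E16.5 and then 467 and 590.5 at E18.5 (log2 0.95, SE 0.20, adjusted p 0.192, 0.0438 with the module block). Igfbp2, another binding protein, was lower, at 565 and 575 at E16.5 and then 342 and 349 at E18.5 (log2 -0.70, SE 0.16, adjusted p 0.252, within-module fit 0.000429). The stages were apart in all 3. Igf2, the fetal growth factor, overlapped at 1932 and 2417 at E16.5 and then 2404 and 2469 at E18.5 (log2 0.17). The list of 14 had a median of -0.12 (module 3 -0.04, module 4 -0.10). In it 2 were apart and higher and 4 apart and lower, beside 16.7% and 20.0% of all tested genes.

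Genes of early embryonic growth were mostly lower, by an amount that depended on the probe sets in the first list below. With the mean of a gene's probe sets, the median of the Hmga, Lin28 and Igf2bp list was -0.09. The list of Hmga, Lin28 and Igf2bp genes, chromatin and RNA-binding proteins of embryonic cells, had a median of -0.26 over 10, with 6 apart and lower and 0 apart and higher (module 3 -0.21, module 4 -0.25, E11.5 minus E12.5 0.19). Hmga2, a chromatin protein of embryonic cells, read 176 and 139 at E16.5 and then 84.2 and 65.6 at E18.5 (log2 -0.93, SE 0.18, adjusted p 0.155, 0.0451 with the module block). Arid3b, a DNA-binding protein, read 73 and 69.9 at E16.5 and then 30.3 and 33.4 at E18.5 (log2 -0.87, SE 0.24, adjusted p 0.47). Lin28b, which blocks let-7 maturation, was under the filter, at 8.3 and 11.4 at E16.5 and then 4.6 and 3.2 at E18.5. In the Wnt list 11 of 26 were apart and lower and 3 apart and higher, with a median of -0.19 (module 3 -0.16, module 4 -0.14, E11.5 minus E12.5 0.02). Lef1, a transcription factor of the pathway, read 77.4 and 83.1 at E16.5 and then 40 and 46.5 at E18.5 (log2 -0.70, SE 0.21, adjusted p 0.534), Wnt4, a ligand that opposes testis fate earlier on, 204 and 242 at E16.5 and then 185 and 109 at E18.5 (log2 -0.59, SE 0.21, adjusted p 0.758), and Axin2, a feedback target, 147 and 129 at E16.5 and then 108 and 93.1 at E18.5 (log2 -0.40, SE 0.17, adjusted p 0.931). Of these, Lef1 and Wnt4 passed the within-module fit (0.0462 and 0.0329).

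Lists of the basic machinery of the cell had medians near 0. Over all tested genes 16.7% were apart and higher and 20.0% apart and lower. Intervals that excluded a 2-fold change held for 94.9% of all tested genes, so the counts of such intervals below are near that share. Cytosolic ribosomal protein genes had a median of 0.06 over 29 (module 3 0.06, module 4 0.05), with 3 apart and higher and 0 apart and lower. Oxidative phosphorylation genes had a median of -0.00 over 39 (module 3 -0.02, module 4 0.01), with 6 apart and higher and 7 apart and lower, and all 39 had intervals that excluded a 2-fold change. So did all 27 genes of G2 phase and mitosis, with a median of -0.03 (module 3 -0.10, module 4 0.06), and 25 of 26 S phase genes, with a median of -0.11 (module 3 -0.17, module 4 0.00), of which 8 were apart and lower and 1 apart and higher. Mki67, a marker of cycling cells, was 1426 and 1283 at E16.5 and then 1157 and 1417 at E18.5 (log2 -0.08). Among strongly expressed genes the 10 with the smallest change included Kdelr2, an endoplasmic reticulum retrieval receptor, at 2822 and 2773 at E16.5 and then 2711 and 2885 at E18.5, Dnaja2, a chaperone, at 2243 and 2081 at E16.5 and then 2130.2 and 2191 at E18.5, and Dhx15, a splicing helicase, at 2282 and 2348 at E16.5 and then 2316 and 2308 at E18.5. Nfix, which encodes a transcription factor of late development, was slightly higher, at 697 and 806 at E16.5 and then 852 and 872 at E18.5 (log2 0.20). Its stages did not overlap.

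**Figure D5:**
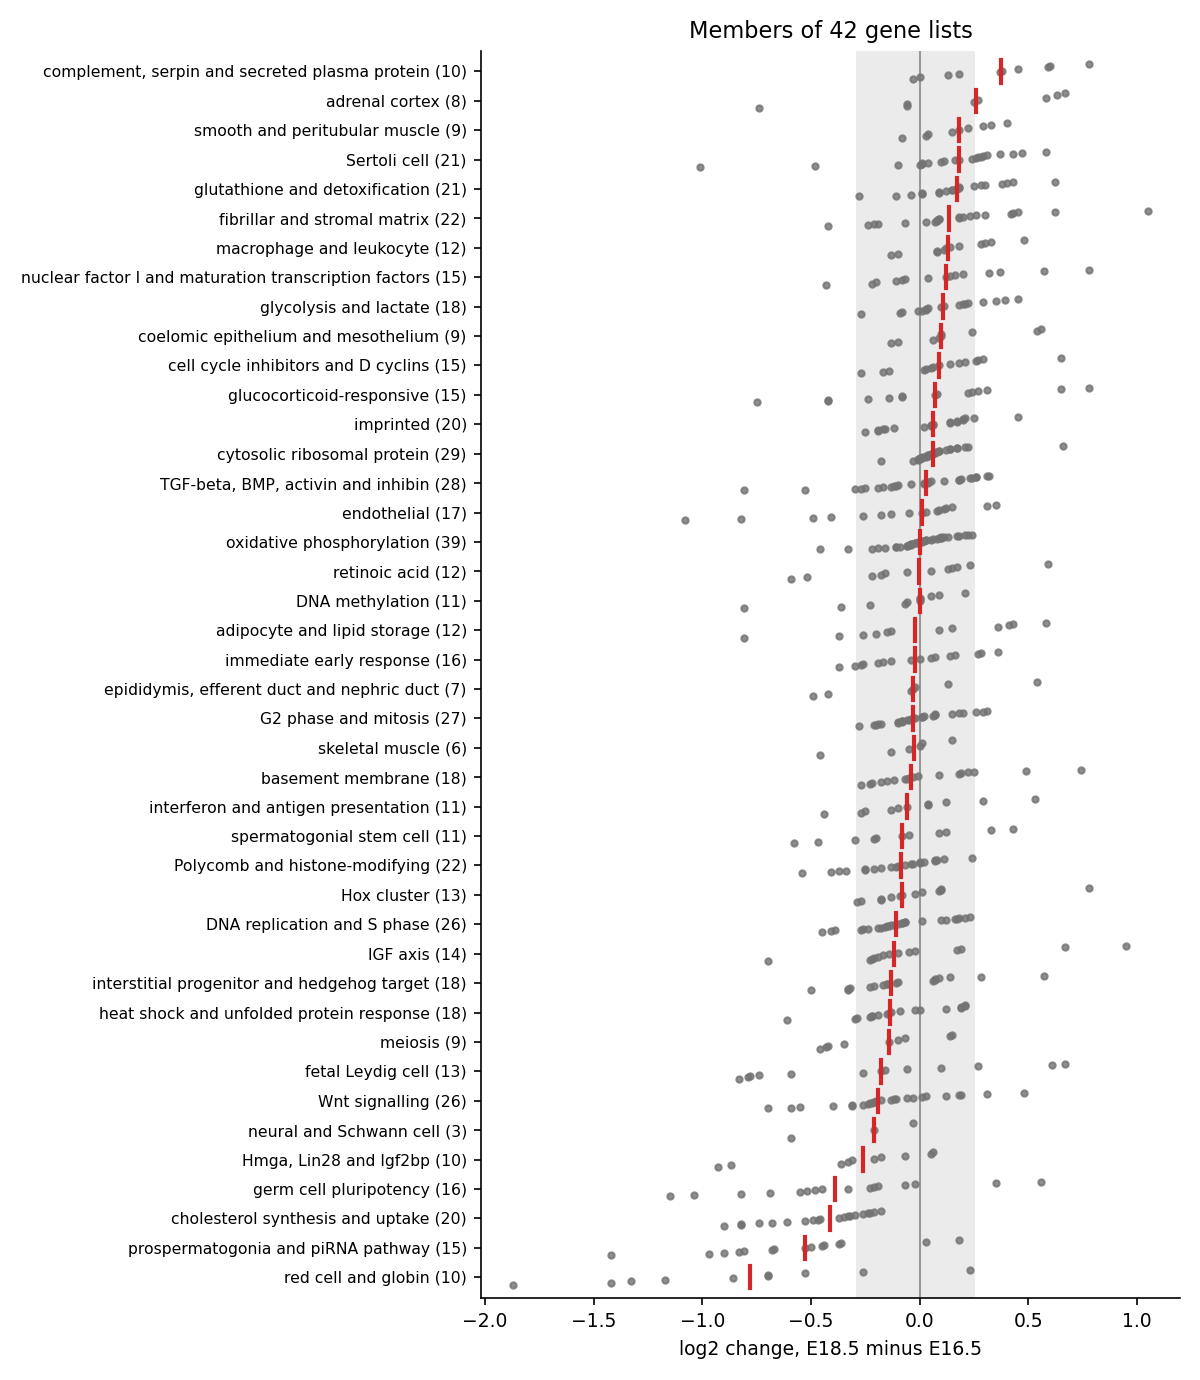
Change of each tested member (points, log2 scale) of 42 gene lists, ordered by list median (red bars), with the number of tested members in brackets. The grey band holds the middle 80% of all 10916 genes. Medians run from -0.78 for red cell genes to 0.37 for secreted plasma proteins, and those of ribosomal, oxidative phosphorylation and mitosis genes lie near 0.

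The last step was set against the earlier step of the same length, E12.5 to E14.5, with which it shares no array. The difference between the 2 changes passed the test for 202 genes (1.85%), of which 167 (1.53%) had the lower change in the last step and 35 (0.321%) the higher. Members with a lower last step were 12 of 15 in the prospermatogonia and piRNA list, 12 of 20 in the cholesterol list and 7 of 13 in the Leydig list. The median changes of these lists from E12.5 to E14.5 were 1.51, 0.85 and 1.64, so the test sets an earlier increase against a later difference near 0 or below it. Against the step from E11.5 to E12.5, which also shares no array, 126 genes differed (1.15%), 80 with the lower change in the last step (0.733%) and 46 with the higher (0.421%). Against that step the members with the lower last step were 7 of 15 in the prospermatogonia and piRNA list, 0 of 20 in the cholesterol list and 1 of 13 in the Leydig list, and 1 Leydig gene had the higher, so the counts depend on which earlier step is used. Against the step from E12.5 to E14.5 the difference for Piwil4 was -4.00 (adjusted p 0.000147), for Cyp51 -1.92 (0.000644) and for Star -2.43 (0.000325). For Cst12 the difference was 0.11 (adjusted p 0.886) and for Igf1 -0.44 (0.435), so the last step and the earlier one were not told apart.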

How the data were processed

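Testis RNA of 5 stages was measured on 10 arrays. The authors deposited linear intensities, 45101 probe sets on each array with none missing. The software and scaling target are not stated in the labels or headers. From the values, the mean without the lowest and highest 2% was 125 on every array. Scanner settings gave fluidics module and scan day, per the file headers. Gene names came from the platform annotation, updated through Entrez numbers in a GRCm38.p6 RefSeq table, which gave 34945 probe sets 1 symbol, 932 several (none named) and 9160 none. Of 929 list entries, 843 could be followed with their own probe set.

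A linear model of log2(signal + 16) with 1 term per stage was fitted to the 10 arrays (R 4.3.3, limma 3.58.1, 5 residual and 8.59 prior degrees of freedom), with eBayes and a trend. Tests were two-sided and adjusted by Benjamini-Hochberg over 10916 genes at 0.05, after a filter at the 40th percentile. The procedure was tested on simulated data. The genes named are those called, in each list at most 4 with the lowest p, a marker panel and the 10 most stable, and others are marked. The members and the 42 lists were chosen with earlier results of these data known. The 250 bases before each start were searched on both strands for 8 motifs, and for 2 more added after values were seen. Alternatives covered pseudocount, filter, probe set choice, scaling, blocks and left-out arrays.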

Additional observations from a re-analysis of the deposited data

Results flagged for a closer look

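The change over the last step differed from the change over the step from E12.5 to E14.5 for 202 genes, 1.85% of those tested (limma, adjusted p under 0.05). There were 2 arrays per stage and no array was shared between the steps. The lower change lay in the last step for 167 of them (1.53% of those tested) and in the earlier step for 35 (0.321%). Among the lists, 12 of 15 prospermatogonia and piRNA genes, 12 of 20 cholesterol genes, 7 of 13 fetal Leydig cell genes and 4 of 9 smooth muscle genes had the lower change in the last step. In the red cell list 3 of 10 had the lower and 1 the higher, Hbb-bh1, an embryonic globin, by 3.37 on the log2 scale (adjusted p 0.000407), which was named after its values were seen. Against the step from E11.5 to E12.5 the lower last step was found in 7 piRNA, 0 cholesterol, 1 Leydig, 0 smooth muscle and 2 red cell genes. Over all tested genes that share was 0.733%. The earlier increase of several of these lists was known when they were chosen, so these counts are not independent evidence.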

How the results depend on the processing

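The count of 2 called genes depended on the setting. It was 2 with a pseudocount of 1, quantile normalization or median centring, 13 with a pseudocount of 64, 5 with the filter at the 60th percentile, 4 with the mean of a gene's probe sets, 5 without _x_at and _s_at probe sets, 5 when the 4 arrays were fitted alone, and 5 at a threshold of 0.1. It was 0 with no filter (890 genes at an unadjusted p under 0.05) and 0 without the variance trend (557). With the fluidics module as a block it was 16. Leaving out 1 array at a time gave 0 to 4 calls. It was 0 without replicate 1 of E14.5 (589 at an unadjusted p under 0.05), replicate 1 of E16.5 (390) or replicate 2 of E18.5 (611). Without replicate 2 of E16.5 or replicate 1 of E18.5, Cst12 stayed past the threshold and Alas2 did not.

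The replicate numbers were not shown to pair the samples. Deviations of same-numbered arrays from their stage means had correlations of 0.00444 to 0.366 over the 10 pairs of stages, with 0.366 for E16.5 and E18.5. With the replicate block the count was 4 over 10 arrays and 535 with the 4 arrays alone, where the block is also the fluidics module (535, an identical fit added after the data were seen).

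Genes whose interval excluded a 2-fold change numbered 9094 to 10439 when 1 array was left out. With the step from E11.5 to E12.5 as the earlier step, 126 genes differed in place of 202. Leaving out 1 array of the 2 stages gave 8 to 9 red cell and 11 to 14 piRNA genes apart and lower. Likewise 18 to 19 cholesterol and 12 to 13 pluripotency genes were apart and lower. For plasma protein genes 6 to 9 were apart and higher, and for detoxification genes 13 to 15. Of all tested genes 31.3% to 41.3% were apart in either direction. A gene with stages apart stays apart when 1 array is left out, so these counts could only stay or rise. They therefore cannot show whether the counts depend on a single array. Of 233 named genes followed through 24 settings, 0 called genes reversed, and 35 genes that were not called changed sign under some setting. List medians kept their sign in every setting for the red cell, piRNA, cholesterol, pluripotency, Sertoli, plasma protein and adrenal lists. They changed sign under some setting for the meiosis (-0.36 to 0.14), spermatogonial stem cell (-0.17 to 0.13), insulin-like growth factor (-0.13 to 0.03), endothelial (-0.12 to 0.06), mitosis (-0.13 to 0.06), glucocorticoid (-0.19 to 0.25) and adipocyte (-0.14 to 0.12) lists. Leaving out 1 array of the 2 stages moved the fibrillar matrix median between 0.00 and 0.26 the leukocyte median between 0.08 and 0.28, the Wnt median between -0.16 and -0.09, the S phase median between -0.22 and -0.01 and the detoxification median between 0.11 and 0.22. With 2 arrays per stage the median SE of a change was 0.2 on the log2 scale, which limits what single genes can show, and signals near the floor limit low genes.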

Other observations

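None of the genes in this paragraph passed the 10-array fit. Over all tested genes 16.7% were apart and higher and 20.0% apart and lower. In the adipocyte and lipid storage list, with a median of -0.02 over 12 genes, 3 were apart and higher and 2 apart and lower. Scd1, the stearoyl-CoA desaturase, read 313 and 338 at E16.5 and then 169 and 190.2 at E18.5 (log2 -0.81, SE 0.21, adjusted p 0.392, within-module fit 0.000234). Fads1 and Fads2, desaturases of polyunsaturated fatty acids that were named after their values were seen, had changes of -0.62 (adjusted p 0.392) and -0.71 (0.646), with stages apart in both. Over 18 heat shock and unfolded protein genes the median was -0.13, with -0.24 in module 3, which holds the E18.5 array with the lower actin ratio, and 0.00 in module 4. It was -0.01 without that array. Of the 18, 6 were apart and lower and 1 apart and higher, and Hsph1, a heat shock protein, read 589 and 551 at E16.5 and then 308 and 441 at E18.5 (log2 -0.61, SE 0.26, adjusted p 0.935). The glucocorticoid-responsive list was split. Its median over 15 genes was 0.07 (module 3 0.17, module 4 -0.04), with 4 apart in each direction and 2 passing each way in the within-module fit. Klf9, a transcription factor induced by thyroid and glucocorticoid hormones, was higher at 74.2 and 102 at E16.5 and then 162 and 159 at E18.5 (log2 0.78, SE 0.20, adjusted p 0.398). Cdkn1a, a cell cycle inhibitor, read 40.3 and 49.7 at E16.5 and then 64.5 and 96.7 at E18.5 (log2 0.65, SE 0.23, adjusted p 0.758), and Mt2, a metallothionein, was lower at 766 and 714 at E16.5 and then 576 and 326 at E18.5 (log2 -0.75, SE 0.24, adjusted p 0.614). Dbp, a clock output factor of the maturation transcription factor list, read 89.5 and 118 at E16.5 and then 165 and 155 at E18.5 (log2 0.57, SE 0.20, adjusted p 0.74).

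Genes were also grouped by the leading letters of their symbols, without choosing them by role, which gave 178 groups of 8 or more tested genes. The lowest median was -0.25, for 8 Cfap genes of cilia and flagella, of which 7 were lower and 4 apart and lower (module 3 -0.22, module 4 -0.31). The 15 Ints genes of the Integrator complex had a median of -0.22 (module 3 -0.15, module 4 -0.07) and the 14 Dhx helicases -0.21 (module 3 -0.18, module 4 -0.16). The highest medians were 0.22 for 16 Il genes (module 3 0.29, module 4 0.05), 0.20 for 13 Snhg host transcripts of small nucleolar RNAs (0.18 and 0.17), and 0.20 for 8 Cdkn cell cycle inhibitors (0.17 and 0.20). All of these medians lay within a log2 of 0.25 of 0.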
